A study of Mus musculus with 72 samples.

Results

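The expression of 10 mouse genes of the NF-kB system was followed through 72 messenger RNA libraries of macrophages. The genes were matched by symbol among the 18472 distinct genes of the 3 deposited tables, and all 10 are listed in each table. They are 4 subunits of the transcription factor (Nfkb1, Nfkb2, Rel and Relb), 2 cytoplasmic inhibitors (Nfkbia and Nfkbie), the nuclear regulator Nfkbiz, the ubiquitin-editing partners Tnfaip3 and Tnip1, and the ribonuclease Zc3h12a. All 10 passed the filter on low values, at least 1 TPM in at least 3 libraries, in each of the 4 experiments. TPM is an abundance in transcripts, scaled by transcript length and library total, so levels of different genes can be compared on it.

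NF-kB dimers wait in the cytoplasm bound to IkB proteins. Bacterial lipopolysaccharide (LPS) acts through Toll-like receptor 4 to have the IkB proteins degraded, and the freed dimers enter the nucleus and switch on inflammatory genes, among them the genes of their own inhibitors. IkBalpha (Nfkbia) and IkBepsilon (Nfkbie) return dimers to the cytoplasm, A20 (Tnfaip3) with its partner ABIN1 (Tnip1) edits ubiquitin chains upstream, Regnase-1 (Zc3h12a) degrades inflammatory transcripts, and IkBzeta (Nfkbiz) works in the nucleus as a co-regulator of secondary response genes. Nfkb1 and Nfkb2 encode the precursors p105 and p100, which give p50 and p52, while c-Rel (Rel) and RelB (Relb) carry activation domains. Glucocorticoids such as dexamethasone (Dex) repress many inflammatory genes through the glucocorticoid receptor and raise some inhibitors, Nfkbia among them in several cell types.

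The libraries form 24 groups of 3. In the first experiment, bone marrow of C57BL/6J mice was grown into macrophages with medium from L929 cells, and cells labelled Setd1bKO were set against control cells, whose titles say wt and whose genotype label says Setd1bHet. Both received 16 h of 1 uM Dex with LPS for 6 h (100 ng/ml by the treatment labels, where a protocol text has the same number per microlitre), LPS for 6 h with 0.1% ethanol for 16 h, or vehicle (ethanol and D-PBS). The other experiments used RAW264.7, a BALB/c macrophage-like line, as Setd1aDel/+ cells, labelled Setd1aDel, against wild-type cells. The 16 h experiment had the same 3 treatments as the marrow-derived cells. The 6 h experiment had 1 uM Dex and 100 ng/ml LPS together for 6 h, Dex alone for 6 h, LPS for 6 h, or vehicle. Its LPS groups and its vehicle groups had 0.1% ethanol for 6 h. The IFNB1 experiment had 6 h of 100 ng/ml LPS with 10 ng/ml interferon beta, or 6 h of LPS, with no vehicle group. Its groups have no ethanol in the labels. The labels give neither the removed exons, nor what drove the Setd1b deletion, nor how many clones of Setd1aDel cells were used. They speak of biological replicates but not of separate animals or cultures, so p-values measure the spread between these libraries, part of which may be technical.

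Whole-gene levels of the targeted genes were checked first. Setd1b had 9.65 to 10.3 TPM in the 3 vehicle libraries labelled Setd1bKO, against 3.80 to 5.13 TPM in control, so this level goes against the label and cannot show which part of the gene was deleted. The genotypes overlapped with LPS, at 6.01 to 9.64 TPM in cells labelled Setd1bKO and 5.36 to 8.53 TPM in control, and with Dex and LPS, at 4.47 to 7.64 TPM and 4.49 to 7.66 TPM. Directions given below for these cells rest on the label. Setd1a had 20.6 to 27.7 TPM in Setd1aDel vehicle libraries of the 16 h experiment, against 32.8 to 46.8 TPM in wild type, and it was likewise lower in each treatment of that experiment and of the IFNB1 experiment, without overlap. In the 6 h experiment its group means were 11.8 to 17.1 TPM in Setd1aDel and 15.6 to 24.2 TPM in wild type, and the genotypes overlapped in every treatment except Dex alone. Tsc22d3, a glucocorticoid target, had 118 to 148 TPM with Dex alone in Setd1aDel cells against 6.93 to 8.41 TPM with vehicle, and 174 to 190 TPM with Dex alone in wild-type cells against 8.91 to 11.4 TPM with vehicle. All 8 macrophage markers examined are listed in every table. Their summed level in vehicle libraries was 24842 to 25605 TPM in cells labelled Setd1bKO against 38894 to 39823 TPM in control, and 23144 to 24249 TPM in Setd1aDel against 2711 to 3140 TPM in wild type of the 16 h experiment. The gap in the 16 h experiment was mostly lysozyme, Lyz2, with a mean of 21388 TPM in Setd1aDel and 1406 TPM in wild type. In bulk samples like these, fewer cells of a type and less RNA per cell cannot be told apart. The part of these marker differences in the genotype results below was not tested. The table of marrow-derived cells holds genes with an authors' mean normalized count of at least 50.1. No marker of the other cell types examined is listed in these Dex tables, which hold no gene below those counts. In the IFNB1 table each of their summed levels was at most 1.1 TPM. At most part of each list is found there, and no mast cell or basophil marker.

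The 10 genes lie on 9 chromosomes. On GRCm38, Nfkbia spans chromosome 12, 55489410 to 55492647, on the minus strand, and Nfkb2 spans chromosome 19, 46304320 to 46312385, on the plus strand. RefSeq promoter windows of GRCm38.p6, from 250 bases before to 50 after a start site, were at hand for 7 of the 10 genes, in 10 windows. The genes without a window here are Nfkbiz, Nfkb1 and Relb. The motif GGGA, any base, then TTTCC, read on both strands, matched windows of Nfkbia and Nfkb2 and 0.411% of the 32851 promoters. The more permissive 10-base kappaB consensus, which includes that motif, matched 8 of the 10 windows and 8.46% of all promoters. The Nfkb2 windows from 46305445 to 46305744 and from 46305680 to 46305979 overlap. The only match in the latter also lies in the former, so these windows are not separate evidence. By gene, 6 of the 7 had at least 1 window with a match, and the gene without a match was Zc3h12a. The glucocorticoid response element, GNACA and TGTNC with any 3 bases between them, read on both strands, matched no window of these genes and 0.475% of all promoters. Windows of Nfkbia, of Nfkb2 and of Zc3h12a are shown because these genes rose together under LPS and did not all move alike under Dex in RAW264.7 cells. In marrow-derived cells they did not part, as given below. Whether the matches bear on these changes was not tested. Capitals mark matches to the kappaB consensus.
Nfkbia (chr12:55492598-55492897, minus strand): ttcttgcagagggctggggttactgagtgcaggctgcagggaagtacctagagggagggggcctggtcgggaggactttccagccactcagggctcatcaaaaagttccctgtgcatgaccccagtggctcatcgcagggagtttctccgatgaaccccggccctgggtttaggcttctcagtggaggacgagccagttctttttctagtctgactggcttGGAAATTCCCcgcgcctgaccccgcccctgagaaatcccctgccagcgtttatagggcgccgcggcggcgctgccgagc
Nfkb2 (chr19:46305445-46305744, plus strand): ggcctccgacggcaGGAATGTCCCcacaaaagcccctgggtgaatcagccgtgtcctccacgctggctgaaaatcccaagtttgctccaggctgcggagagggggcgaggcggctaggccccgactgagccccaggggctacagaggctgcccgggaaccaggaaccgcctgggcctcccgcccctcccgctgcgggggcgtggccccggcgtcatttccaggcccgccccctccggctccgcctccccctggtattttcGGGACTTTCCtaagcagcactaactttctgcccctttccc
Zc3h12a (chr4:125127832-125128131, minus strand): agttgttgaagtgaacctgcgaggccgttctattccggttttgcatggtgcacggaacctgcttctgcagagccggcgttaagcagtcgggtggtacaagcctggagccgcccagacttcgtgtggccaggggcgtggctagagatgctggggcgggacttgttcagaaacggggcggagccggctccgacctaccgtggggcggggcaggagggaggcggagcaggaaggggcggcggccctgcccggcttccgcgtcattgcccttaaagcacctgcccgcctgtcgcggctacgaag
The capitals in the Nfkbia window stand 29 bases before the start site and match that motif on the opposite strand. A match describes letters in a window and does not show that a factor is bound there.

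LPS raised all 10 genes in every comparison with vehicle, in both marrow-derived genotypes and in both RAW264.7 genotypes of the 16 h and 6 h experiments. Nfkbiz and Tnfaip3 had the largest log2 changes in marrow-derived macrophages and in the RAW264.7 cells of the 16 h experiment, Nfkbiz and Zc3h12a had them in the 6 h experiment, and Relb had the smallest change in all 6 comparisons. These positions did not change with a pseudocount of 0.1 or with median-of-ratios scaling, except that Nfkbiz and Tnfaip3 swapped the first and second place in control marrow-derived cells with the smaller pseudocount. Changes are limma estimates on log2(TPM + 1), and calls were made at p under 0.05 after Benjamini-Hochberg adjustment over every gene tested.

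Nfkbiz had 190, 193 and 205 TPM with LPS in cells labelled Setd1bKO, against 1.45, 1.26 and 1.33 TPM with vehicle. In control cells it had 130, 120 and 128 TPM with LPS, against 3.59, 2.79 and 3.28 TPM with vehicle. The LPS and vehicle libraries stood far apart in both genotypes, by 6.39 ± 0.07 (SE) on the log2 scale in cells labelled Setd1bKO (adjusted p = 1.15e-19, limma) and by 4.92 ± 0.07 in control (adjusted p = 2.89e-18). Tnfaip3, the A20 deubiquitinase gene, averaged 316 ± 6.6 TPM with LPS and 5.9 ± 0.411 TPM with vehicle in cells labelled Setd1bKO, and 447 ± 4.77 TPM with LPS and 13.7 ± 3.64 TPM with vehicle in control (SD, 3 libraries each). Nfkbia was the most abundant of the 10 genes with LPS, at 946, 955 and 930 TPM with LPS in cells labelled Setd1bKO against 24, 28.7 and 25.8 TPM with vehicle, and at 703, 657 and 696 TPM in control cells with LPS against 37.6, 34.4 and 34.6 TPM with vehicle. No LPS library of these 3 genes came near a vehicle library. The LPS and vehicle libraries did not overlap for 83.6% of all tested genes in cells labelled Setd1bKO and 87.3% in control.

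Among the subunits in marrow-derived cells, Nfkb2 rose the most. It averaged 304 ± 6.19 TPM with LPS and 17.5 ± 0.697 TPM with vehicle in cells labelled Setd1bKO, and 307 ± 11.5 TPM with LPS and 18.9 ± 0.573 TPM with vehicle in control. Nfkb1 averaged 225 ± 2.21 TPM with LPS and 24.8 ± 0.841 TPM with vehicle in cells labelled Setd1bKO, and 191 ± 2.86 TPM with LPS and 26.6 ± 0.303 TPM with vehicle in control. The transactivating subunits stayed less abundant: with LPS, Rel averaged 39.5 ± 2.72 TPM in cells labelled Setd1bKO and 27.9 ± 0.863 TPM in control, and Relb 54.8 ± 2.46 TPM in cells labelled Setd1bKO and 41.3 ± 2.74 TPM in control. The remaining inhibitors rose by 4.28 (Nfkbie), 2.17 (Tnip1) and 3.42 (Zc3h12a) on the log2 scale in cells labelled Setd1bKO and by 3.86, 2.14 and 2.90 in control.

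As background, 24.9% of 9159 tested genes were called higher with LPS in cells labelled Setd1bKO and 20.6% in control cells, with 83.1% and 85.3% called in either direction. The median log2 change of the 10 genes was 3.73 in cells labelled Setd1bKO and 3.38 in control, against -0.37 and -0.49 for all tested genes. Because the median gene fell, scaling the libraries by median ratios moved the changes of the 10 genes up, by 0.38 in cells labelled Setd1bKO and 0.52 in control, and all 10 calls were kept. The share of all called genes that were higher moved to 49.7% in cells labelled Setd1bKO and 50% in control with scaling, against 30.0% and 24.2% without. All 10 genes also stayed above vehicle with Dex and LPS in both genotypes, where 30.0% of genes in cells labelled Setd1bKO and 25.8% in control were called higher. With scaling all 10 were still called, and the share of higher genes among all calls moved to 50.5% in cells labelled Setd1bKO and 50.6% in control, against 38.2% and 32.2% without. These comparisons share their vehicle libraries. The plot of marrow-derived values shows every library.

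**Figure D1:**
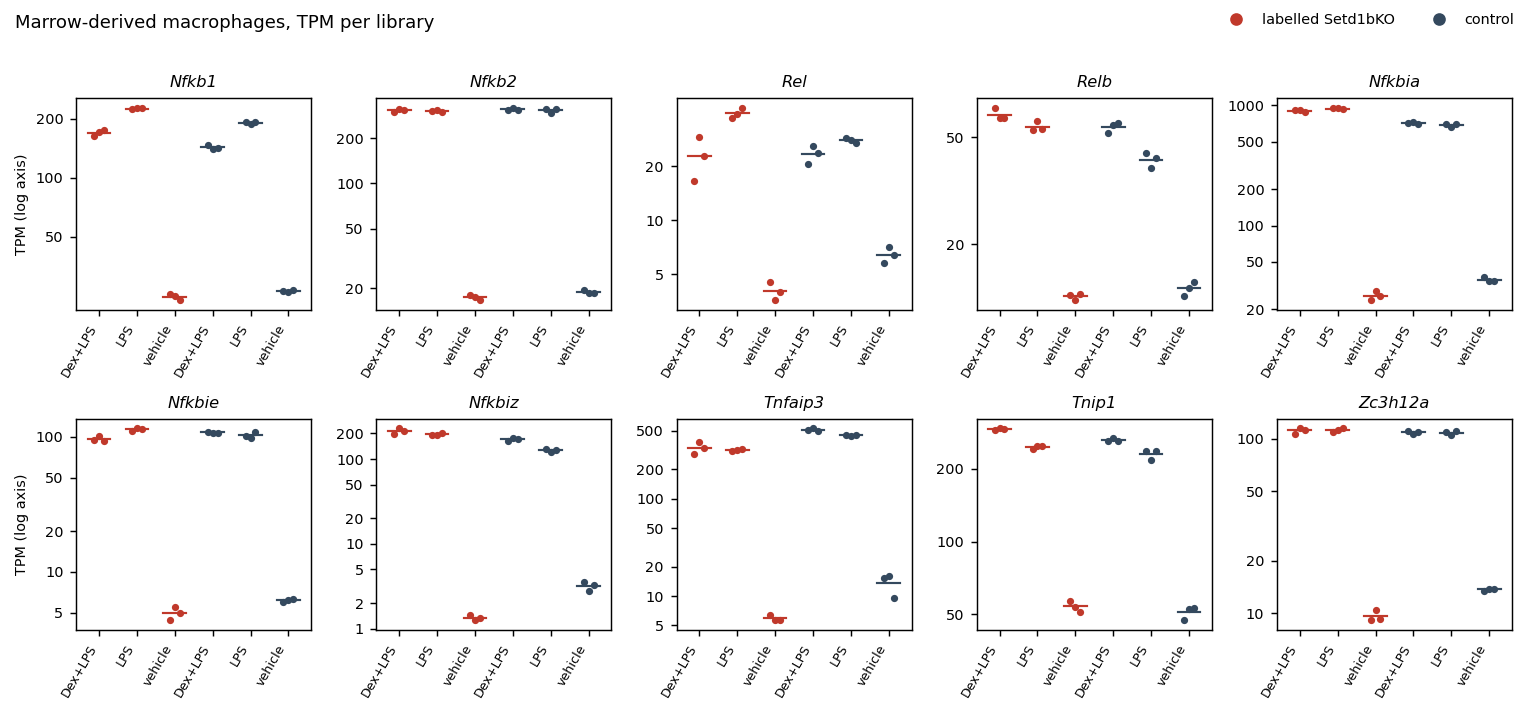
TPM of the 10 genes in each marrow-derived library (points; log axis, limits differ between panels), with group means as bars, for Setd1bKO (red) and control (dark) cells with Dex and LPS, LPS, or vehicle. Every library with LPS lies above every vehicle library of its genotype, and Dex with LPS stays close to LPS for most genes.

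In RAW264.7 cells of the 16 h experiment the median change of the 10 genes was 2.37 in Setd1aDel and 2.96 in wild type, with 18.4% and 17.4% of 8964 tested genes called higher. Nfkbiz had 142, 140 and 140 TPM with LPS in Setd1aDel cells against 1.86, 1.79 and 1.59 TPM with vehicle, and 87.8, 86.8 and 86.1 TPM with LPS in wild-type cells against 1.13, 0.933 and 1.16 TPM with vehicle. Its LPS libraries did not overlap between the genotypes, which also held for 62.4% of all tested genes. Zc3h12a, whose protein cleaves stem loops in cytokine transcripts, averaged 100 ± 1.88 TPM with LPS and 5.76 ± 0.395 TPM with vehicle in Setd1aDel, and 71.8 ± 2.66 TPM with LPS and 3.67 ± 0.267 TPM with vehicle in wild type.

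In the 6 h experiment the median change was 2.19 in Setd1aDel and 2.03 in wild type, with 20.4% and 19.5% of 8981 tested genes called higher. Nfkbiz averaged 60.2 ± 2.18 TPM with LPS and 2.27 ± 0.335 TPM with vehicle in Setd1aDel, and 52.9 ± 1.08 TPM with LPS and 2.18 ± 0.368 TPM with vehicle in wild type. Tnfaip3 was the noisiest of the 10 here: it had 22.4, 16.8 and 28.8 TPM with LPS in Setd1aDel against 1.96, 2.52 and 3.08 TPM with vehicle, and 17.4, 20.7 and 18.5 TPM with LPS in wild type against 1.40, 4.06 and 1.23 TPM with vehicle. Relb had the smallest rise, 0.84 ± 0.087 in Setd1aDel (adjusted p = 4.28e-08, limma) and 0.74 ± 0.087 in wild type (adjusted p = 2.37e-07). Median-of-ratios scaling moved the changes in these 4 RAW264.7 comparisons up by 0.21 to 0.41 and kept every call, while the share of all called genes that were higher, 20.9% to 29.3% without scaling, became 49.8% to 50.5%. With Dex and LPS all 10 genes again stayed above vehicle, with 18.1% of genes in Setd1aDel and 18.3% in wild type called higher in the 16 h experiment and 20.5% and 18.5% in the 6 h experiment. With scaling the 10 calls were kept in each, and the share of higher genes among all calls moved to between 49.5% and 50.8%, against 22.1% to 32.2% without. The weakest was Nfkbie in Setd1aDel of the 6 h experiment, at 0.27 ± 0.1 (adjusted p = 0.0266, limma), a call lost without the first or second library of either treatment. Compared with Dex alone in the 6 h experiment, Dex and LPS raised all 10 genes in both genotypes, with 22.3% of genes in Setd1aDel and 21.4% in wild type called higher. The 10 calls were kept with scaling, and the share of higher genes among all calls moved to 50.4% in Setd1aDel and 50.2% in wild type, against 34.6% and 32.0% without.

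**Figure D2:**
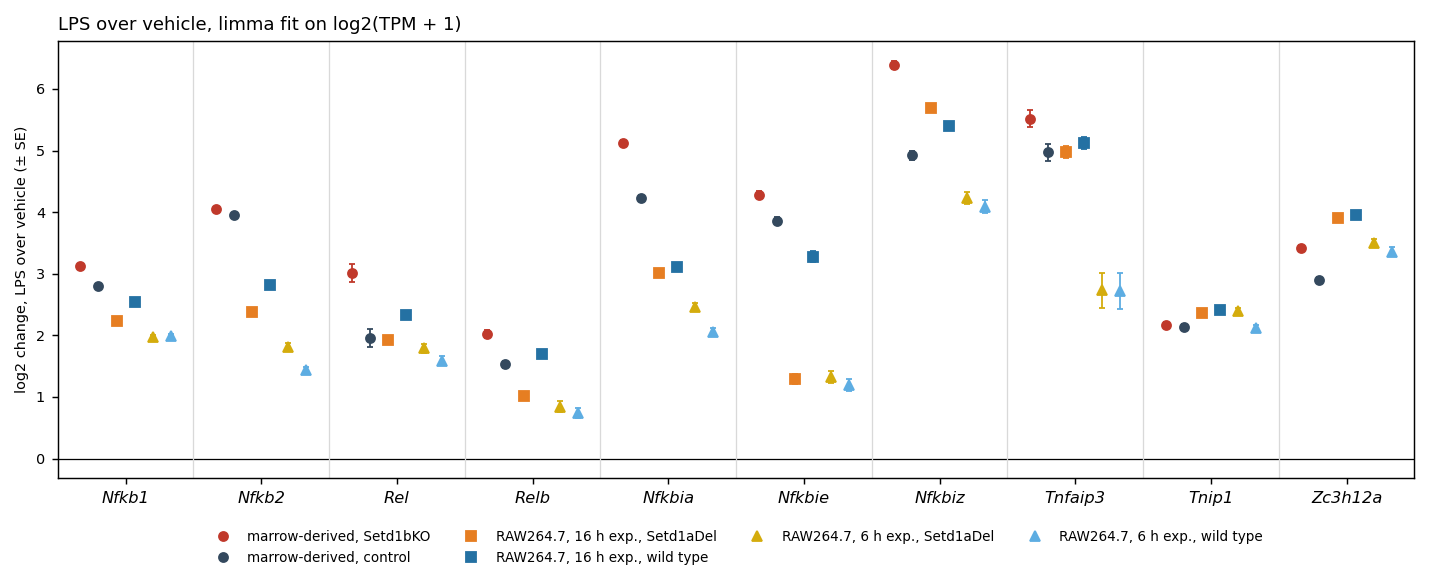
Log2 change (vertical axis, limma on log2(TPM + 1), bars are SE) of the 10 genes with LPS over vehicle in 6 comparisons of 3 against 3 libraries, each mutant left of its control. All 60 changes lie above 0; Nfkbiz reaches 6.39 in marrow-derived cells labelled Setd1bKO, and Relb in the 6 h experiment is lowest, at 0.74 in wild type.

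The same 6 h of LPS gave larger changes in the 16 h experiment than in the 6 h experiment. In a joint fit, the LPS change of all 10 wild-type genes was larger in the 16 h experiment, with a median difference of 1.00 and 9.02% of genes called with a positive difference. The largest were Tnfaip3 at 2.39 ± 0.33 (adjusted p = 5.48e-07, limma) and Nfkbie at 2.08 ± 0.13 (adjusted p = 4.01e-14). In Setd1aDel cells 6 of the 10 differences were called, all positive (8.65% of genes), and Nfkbie was not, at -0.03. With scaling 10 were called in wild type and 9 in Setd1aDel, and the share of positive differences among all called genes moved to 50.6% and 51.6%, against 23.9% and 17.4% without. Tnip1 in Setd1aDel turned from -0.03 to 0.19. Experiment and length of ethanol exposure differ together, so they cannot be told apart. The macrophage markers of wild-type vehicle cells also differed, with a summed level of 2711 to 3140 TPM in the 16 h experiment and 9433 to 9739 TPM in the 6 h experiment. The means of 5 of the 8 were lower in the 16 h experiment, Lyz2 among them (1406 and 7533 TPM), and those of Cd68 (581 and 430 TPM), Csf1r (662 and 509 TPM) and Fcgr1 (59.9 and 29.0 TPM) were higher.

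Other genes of the pathway were taken from a list of 47 signalling, adaptor and inhibitor genes. With LPS in control marrow-derived cells, 45 were tested, of which 23 rose and 18 fell, with a median log2 change of 0.40. Of all tested genes, 20.6% were called higher and 64.7% lower there. Traf1, an adaptor that binds TNF receptors, rose by 5.55 ± 0.079, Malt1, a protease of the CARD-BCL10 complex, by 3.05 ± 0.1, and Irak3, a negative regulator of Toll-like receptor signalling, by 2.55 ± 0.054, while the Regnase relative Zc3h12d fell by 2.64 on the log2 scale. In wild-type RAW264.7 cells 19 of 43 rose and 19 fell in the 16 h experiment, and 19 rose and 12 fell in the 6 h experiment. Among all tested genes, 17.4% were called higher and 66.1% lower in the 16 h experiment. In the 6 h experiment these shares were 19.5% and 52.3%. The kinase gene Ikbke led the list in both experiments, at 4.99 ± 0.065 in the 16 h and 3.84 ± 0.11 in the 6 h experiment. Bcl3, an atypical IkB protein, rose by 3.11 ± 0.079 and 2.19 ± 0.12. Rela, the remaining subunit, was looked up after its values were seen: it rose by 0.81 ± 0.046 in control marrow-derived cells, while its fall in wild-type RAW264.7 cells of the 16 h and 6 h experiments (-0.15 and -0.22) turned to 0.24 and 0.03 with median-of-ratios scaling.

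Dex alone, given for 6 h to RAW264.7 cells, split the 10 genes. In Setd1aDel cells 2 rose and 5 fell, and in wild-type cells 3 rose and 5 fell, against 30.2% and 36.8% of all tested genes called in either direction. Nfkbia had 138, 157 and 155 TPM with Dex in Setd1aDel cells against 60.7, 58.7 and 65.6 TPM with vehicle, and 143, 139 and 129 TPM with Dex in wild-type cells against 75.6, 64.6 and 66.5 TPM with vehicle. The Dex and vehicle libraries did not overlap in either genotype, and the changes were 1.27 ± 0.063 in Setd1aDel (adjusted p = 8.32e-12, limma) and 0.98 ± 0.063 in wild type (adjusted p = 2.9e-10). Of all tested genes, 43% in Setd1aDel and 49.1% in wild type did not overlap between these treatments. The share of higher genes among all calls was 39.6% in Setd1aDel and 32.7% in wild type, and 43.8% and 44.7% with scaling, which left the 10 genes' counts as they were. Zc3h12a also rose, by 0.42 ± 0.067 in Setd1aDel and 0.58 ± 0.067 in wild type, to means of 8.37 and 8.31 TPM. Nfkbiz rose in wild type by 0.53 ± 0.1 (adjusted p = 0.000386), where it had 3.72, 3.95 and 3.15 TPM with Dex against 2.61, 2.01 and 1.94 TPM with vehicle. In Setd1aDel its Dex libraries, at 2.25 to 3.56 TPM, overlapped the vehicle libraries, at 2.04 to 2.66 TPM, and it was called there only without the first Dex library (0.32, adjusted p = 0.0294). Tnfaip3, at 0.41 ± 0.29 in wild type, was called only without the second vehicle library (0.79, adjusted p = 0.0287), and Rel was not called.

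The fall with Dex alone was largest for Relb, which had 3.50, 3.77 and 2.73 TPM with Dex in Setd1aDel against 6.08, 6.67 and 6.35 TPM with vehicle, and 2.44, 2.29 and 2.78 TPM with Dex in wild type against 6.01, 6.51 and 5.12 TPM with vehicle. The groups stood apart in both genotypes, as for 43% of all tested genes in Setd1aDel and 49.1% in wild type. The changes of Relb were -0.77 ± 0.087 in Setd1aDel and -0.97 ± 0.087 in wild type. Nfkb2, Nfkb1 and the inhibitor Nfkbie also fell in both genotypes, Nfkbie by 0.45 in Setd1aDel and by 0.77 in wild type. Tnip1 averaged 25.5 ± 0.862 TPM with Dex and 31.9 ± 1.28 TPM with vehicle in Setd1aDel, and 22.1 ± 0.964 TPM with Dex and 37.1 ± 2.38 TPM with vehicle in wild type. Its fall was smaller in Setd1aDel, by a difference of 0.41 ± 0.067 (adjusted p = 0.0111, limma; 0.290% of genes called), and this was the single gene of the 10 whose response to Dex alone was called different between genotypes. With the groups compared fitted alone its adjusted p was 0.128, and with scaling the share of positive differences among all called genes moved to 42.9%, against 65.4% without. On the list of 47, 10 rose and 13 fell in wild type, with Bcl3 at -1.19 ± 0.12, Tnip3 at -1.08 ± 0.26 and Irak3 at 0.84 ± 0.093 among them.

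Under LPS in the same 6 h experiment, Dex lowered most of the genes. In Setd1aDel cells 8 fell and none of the 10 rose (32.9% of genes called in either direction), and in wild-type cells 6 fell and 2 rose (25.3%). With scaling these counts were the same, and the share of higher genes among all calls was 50.5% in Setd1aDel and 44.5% in wild type, against 67.3% and 58.1% without. Rel had 10, 10.8 and 8.6 TPM with Dex and LPS in Setd1aDel against 19.6, 20.6 and 20.7 TPM with LPS, and 13.5, 12.6 and 12.3 TPM with Dex and LPS in wild type against 20.4, 20.6 and 20.2 TPM with LPS. No library with Dex reached the level of LPS alone. These 2 treatments did not overlap for 40.7% of all tested genes in Setd1aDel and 40.8% in wild type. Nfkbie changed by -1.05 ± 0.1 in Setd1aDel and -0.76 ± 0.1 in wild type, and Dex left 13.6% and 27.3% of its mean TPM rise over vehicle. Nfkb1, Nfkb2, Nfkbiz and Tnip1 fell in both genotypes, by 0.54, 0.44, 0.82 and 0.38 in Setd1aDel and by 0.43, 0.25, 0.43 and 0.38 in wild type.

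Nfkbia moved in opposite directions in the 2 genotypes under LPS. It had 263, 270 and 263 TPM with Dex and LPS in Setd1aDel against 359, 343 and 331 TPM with LPS, a change of -0.37 ± 0.063 (adjusted p = 0.000103, limma). In wild type it had 349, 351 and 317 TPM with Dex and LPS against 286, 299 and 285 TPM with LPS, a change of 0.22 ± 0.063 (adjusted p = 0.0123). The groups did not overlap in either genotype, as for 40.7% of all tested genes in Setd1aDel and 40.8% in wild type. The difference between the genotypes was -0.60 ± 0.088 (adjusted p = 0.00106), with 5.29% of genes called for such a difference, 61.5% of them positive without scaling and 49.5% with it. Nfkbia was the single gene of the 10 called there, and Rel joined it with scaling (-0.38) or without the second Setd1aDel library with Dex and LPS (-0.42). The rise in wild type was not called without the first or the second wild-type library with Dex and LPS (adjusted p = 0.0537 and 0.0562). The log2 change with Dex in the presence of LPS minus that in its absence was -1.64 ± 0.088 for Nfkbia in Setd1aDel and -0.76 ± 0.088 in wild type, and it was 0.80 ± 0.12 for Relb in wild type. In all, 6 of the 10 differences between the Dex effects with and without LPS were called in Setd1aDel (30.1% of genes) and 8 in wild type (30.4%), also with scaling. The share of positive differences among all called genes was then 52.4% in Setd1aDel and 50.3% in wild type, against 68.4% and 69.6% without.

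With 16 h of Dex, 7 genes fell under LPS in Setd1aDel RAW264.7 cells and 8 in wild-type cells, and Zc3h12a rose in both, against 44.7% and 47.6% of genes called. With scaling 8 fell in Setd1aDel and 9 in wild type, and the share of higher genes among all calls moved to 51.1% and 46.0%, against 66.7% and 74.1% without. Nfkbie had 8.38, 8.82 and 8.20 TPM with Dex and LPS in Setd1aDel against 15.1, 15.8 and 15.3 TPM with LPS, and 15.2, 16.1 and 16 TPM with Dex and LPS in wild type against 37.2, 35.8 and 38.3 TPM with LPS. Both pairs of groups stood apart, with changes of -0.79 ± 0.082 in Setd1aDel and -1.19 ± 0.082 in wild type. So did those of 50.8% of all tested genes in Setd1aDel and 57.3% in wild type. Rel changed by -0.78 ± 0.061 and -0.92 ± 0.061, and Nfkbiz by -0.66 ± 0.044 and -0.61 ± 0.044, in Setd1aDel and wild type in that order. Zc3h12a averaged 125 ± 2.61 TPM with Dex and LPS and 100 ± 1.88 TPM with LPS in Setd1aDel, and 85.1 ± 0.235 TPM with Dex and LPS and 71.8 ± 2.66 TPM with LPS in wild type. Nfkbia fell in both genotypes here, by 0.32 in Setd1aDel and 0.28 in wild type. Relb was not called in either genotype, at -0.01 in Setd1aDel and -0.13 in wild type, though with median-of-ratios scaling the wild-type change was -0.24 and called.

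The Dex effect on Nfkbia under LPS differed between the 16 h and 6 h experiments in wild type by -0.50 ± 0.072 (adjusted p = 5.61e-06, limma), 1 of 6 such calls among the 10 genes (13.5% of genes). Of these, 3 were left without the first or the second wild-type library with Dex and LPS of the 6 h experiment, the calls of Nfkbie and Rel being lost with that of Tnfaip3. With scaling 5 were called, and the share of positive differences among all called genes moved to 41.8%, against 67.7% without. In Setd1aDel the same difference was 0.06 ± 0.072, and 4 other genes were called (19.2% of genes), Relb at 0.47 ± 0.11 the largest. Tnfaip3 averaged 27.7 ± 6.32 TPM with Dex and LPS and 18.9 ± 1.67 TPM with LPS in wild type at 6 h, where the groups overlapped and it was not called, and it fell by 0.60 in wild type at 16 h. The difference of -1.11 ± 0.33 (adjusted p = 0.0209) was not called without the first or second wild-type library with Dex and LPS of the 6 h experiment (adjusted p = 0.052 and 0.064). Duration of Dex and experiment cannot be told apart in these comparisons.

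In marrow-derived cells 4 of the 10 genes were called for 16 h of Dex under LPS in each genotype. In cells labelled Setd1bKO 1 rose and 3 fell, and in control 3 rose and 1 fell, against 52.7% and 59.9% of genes called. Nfkb1 fell in both, and it had 164, 171 and 175 TPM with Dex and LPS in cells labelled Setd1bKO against 223, 227 and 226 TPM with LPS, and 147, 140 and 142 TPM with Dex and LPS in control against 192, 188 and 193 TPM with LPS. The groups stood apart, with changes of -0.41 ± 0.033 in cells labelled Setd1bKO and -0.42 ± 0.033 in control. So did those of 54% of all tested genes in cells labelled Setd1bKO and 67.2% in control. Rel fell in cells labelled Setd1bKO by 0.80, to 16.5, 29.1 and 22.7 TPM with Dex and LPS against 37, 39 and 42.4 TPM with LPS, and Nfkbie fell there by 0.25. In control Rel was not called, at -0.25, except with scaling (-0.46) or with the groups compared fitted alone. Nfkbiz rose in control by 0.43 ± 0.07 (adjusted p = 9e-05), with 161, 177 and 174 TPM with Dex and LPS against 130, 120 and 128 TPM with LPS, and Relb rose there by 0.40 ± 0.06. Tnip1 rose by 0.24 ± 0.048 in cells labelled Setd1bKO and 0.19 ± 0.048 in control.

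These marrow-derived counts depended on scaling. The median gene was 0.15 higher with Dex and LPS in cells labelled Setd1bKO and 0.18 higher in control, and with median-of-ratios scaling 6 of the 10 genes fell and none rose in cells labelled Setd1bKO, while 5 fell and 2 rose in control. Among all called genes the share higher with Dex was 74.4% in cells labelled Setd1bKO and 74.7% in control without scaling, and 39.2% and 43.4% with it. Nfkb2 then fell by 0.16 in cells labelled Setd1bKO and 0.19 in control, Nfkbia fell by 0.25 and 0.17, Zc3h12a fell by 0.19 and 0.21, and Tnip1 was no longer called. Nfkbiz and Relb remained higher in control and Nfkb1 lower in both genotypes. In the authors' deposited table the log2 fold changes in control were -0.64 for Nfkb1, -0.20 for Nfkb2, 0.22 for Nfkbiz and 0.19 for Relb. They were -0.48 for Rel, -0.17 for Nfkbia, -0.15 for Nfkbie, -0.21 for Zc3h12a and -0.02 for Tnfaip3. Tnip1, called higher without scaling, had -0.03 in control and 0.06 in cells labelled Setd1bKO. The other values in cells labelled Setd1bKO were -0.59 (Nfkb1), -0.17 (Nfkb2), -0.06 (Nfkbiz), -0.03 (Relb) and -0.99 (Rel). Those of Nfkbia, Nfkbie, Zc3h12a and Tnfaip3 were -0.25, -0.43, -0.19 and -0.10.

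**Figure D3:**
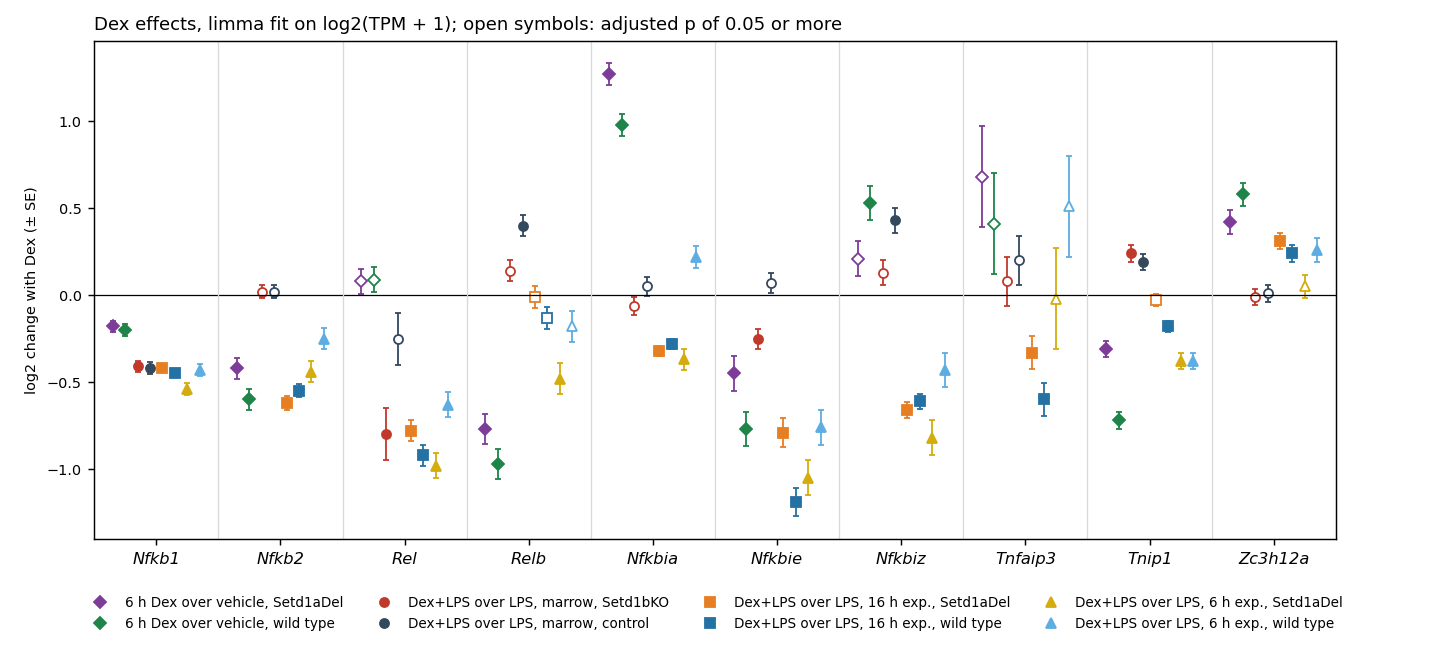
Log2 change with Dex (vertical axis, limma on log2(TPM + 1), bars are SE) of the 10 genes in 8 comparisons of 3 against 3 libraries; diamonds are Dex alone, the other symbols Dex with LPS over LPS, and open symbols were not called. Nfkbia reaches 1.27 and 0.98 with Dex alone and lies between -0.37 and 0.22 under LPS, while Rel, Nfkbie and Nfkb1 lie below 0 in every comparison under LPS except Nfkbie in control marrow-derived cells, at 0.07 and not called.

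Cells labelled Setd1bKO had lower resting levels of most of the 10 genes. With vehicle 7 were lower than in control and none higher, against 15.4% of genes called lower and 9.89% called higher. Tnfaip3 had 6.37, 5.69 and 5.64 TPM in cells labelled Setd1bKO against 15.3, 16.2 and 9.48 TPM in control, a change of -1.06 ± 0.14 (adjusted p = 2.92e-05, limma). Nfkbiz, with the values given above, changed by -0.84 ± 0.07 (adjusted p = 2.1e-07). Zc3h12a averaged 9.64 ± 0.761 TPM in cells labelled Setd1bKO and 13.7 ± 0.25 TPM in control, Nfkbia 26.1 ± 2.37 TPM and 35.5 ± 1.78 TPM, and Rel 4.02 ± 0.479 TPM and 6.41 ± 0.672 TPM, in the same order. None of these groups overlapped, which also held for 44.2% of all tested genes. With scaling 6 were lower. Nfkb2, at -0.11 ± 0.038, was called at an adjusted p of 0.0472 and lost the call with scaling, with the compared groups fitted alone, and without any one library except the first library labelled Setd1bKO. The means of all 8 macrophage markers were lower too, with Mpeg1 at a mean of 133 TPM in cells labelled Setd1bKO and 1102 TPM in control.

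With LPS the order turned for several genes: 5 were higher in cells labelled Setd1bKO and 1 lower, against 41.4% of genes called. With scaling 5 were higher and 2 lower, and the share of higher genes among all calls moved to 44.3%, against 70.0% without. Nfkbiz (196 ± 7.64 TPM in cells labelled Setd1bKO and 126 ± 5.53 TPM in control), Nfkbia (943 ± 12.5 and 685 ± 24.7 TPM), Rel, Relb and Nfkb1 were the higher ones, by 0.63, 0.46, 0.49, 0.40 and 0.24. Rel was not called without the third library labelled Setd1bKO with LPS (adjusted p = 0.0557). Tnfaip3 stayed lower, by 0.50 on the log2 scale, with 310, 314 and 323 TPM in cells labelled Setd1bKO against 449, 442 and 451 TPM in control. The response to LPS was larger in cells labelled Setd1bKO for 7 genes and smaller for none of the 10 (16.4% of genes called positive), with Nfkbiz at 1.48 ± 0.1 (adjusted p = 9.4e-08, limma), Rel at 1.05 ± 0.21 and Nfkbia at 0.89 ± 0.073. Of these 7 genes, 5 were called lower with vehicle and 5 higher with LPS in cells labelled Setd1bKO. Tnfaip3, at 0.55 ± 0.19 (adjusted p = 0.0535), was called at 0.78 without the third control vehicle library. With scaling the same number, 7, was called, and the share of positive differences among all called genes moved to 45.5%, against 75.1% without.

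With Dex and LPS 4 genes were higher and 2 lower in cells labelled Setd1bKO (35.0% of genes called). With scaling 3 were higher and 2 lower, and the share of higher genes among all calls moved to 43.9%, against 67.1% without. Nfkbia (0.35 ± 0.052), Nfkbiz (0.32 ± 0.07) and Nfkb1 (0.25 ± 0.033) were among the higher ones, and Tnfaip3 was lower at -0.62 ± 0.14, with 289, 386 and 330 TPM in cells labelled Setd1bKO against 510, 531 and 497 TPM in control. The calls of Tnip1 and Nfkbie, at 0.15 and -0.16, were lost without any one of several libraries: Tnip1 without the second or the third library labelled Setd1bKO or the first or the third control library, and Nfkbie without the first or the third library labelled Setd1bKO or any control library. The response to Dex under LPS was called different for Nfkbie alone, at -0.31 ± 0.083 (adjusted p = 0.0335; 6.21% of genes), and that call was kept in only 3 of the 12 fits that left out a library: those without the second library labelled Setd1bKO with Dex and LPS, the first library labelled Setd1bKO with LPS or the third control library with LPS. Without the second library labelled Setd1bKO with Dex and LPS, Nfkbiz (-0.36) and Rel (-0.73) were called as well. Scaling removed the call and moved the share of positive differences among all called genes to 53.5%, against 43.2% without.

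Setd1aDel RAW264.7 cells had higher resting levels in the 16 h experiment. With vehicle 8 of the 10 genes were higher and none lower, against 15.3% of genes called higher and 32.9% called lower. With scaling the same number, 8, was higher, and the share of higher genes among all calls moved to 51.2%, against 31.7% without. Relb had 8.42, 8.54 and 7.91 TPM in Setd1aDel against 3.34, 4.54 and 3.86 TPM in wild type, a change of 0.93 ± 0.064 (adjusted p = 1.79e-08, limma). Nfkbie had 6.10, 5.65 and 5.39 TPM in Setd1aDel against 2.49, 3.69 and 2.67 TPM in wild type, a change of 0.78 ± 0.082. These libraries also differed in the macrophage markers. The means of 7 of the 8 were higher in Setd1aDel, Lyz2 as given above and Cd14 (518 and 216 TPM) among them. That of Cd68 was lower (564 and 581 TPM).

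With LPS in that experiment 5 genes were higher and 4 lower in Setd1aDel (59.9% of genes called). The order of Nfkbie turned, with 15.1, 15.8 and 15.3 TPM in Setd1aDel against 37.2, 35.8 and 38.3 TPM in wild type, a change of -1.22 ± 0.082 (adjusted p = 4.44e-09, limma). Rel was lower by 0.44, while Nfkbiz (0.69 ± 0.044), Zc3h12a (0.48 ± 0.047), Tnip1 (0.28 ± 0.034), Relb (0.25 ± 0.064) and Nfkbia (0.19 ± 0.028) were higher. The small falls of Nfkb1 and Nfkb2, -0.06 and -0.09, were lost without any 1 of the 6 libraries and turned to 0.05 and 0.01 with scaling, with which 5 genes were higher and 2 lower and the share of higher genes among all calls moved to 47.2%, against 29.2% without. The LPS response was smaller in Setd1aDel for 5 genes and larger for Nfkbiz (33.4% of genes called), by -1.99 ± 0.12 for Nfkbie (adjusted p = 2.25e-09). The difference of Nfkbiz, 0.29 ± 0.062, fell to 0.04 with a pseudocount of 0.1 and was then not called, its vehicle levels being near 1 TPM.

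With Dex and LPS in that experiment 6 genes were higher and 3 lower in Setd1aDel (64.6% of genes called). With scaling 7 were higher and 2 lower, and the share of higher genes among all calls moved to 50.2%, against 26.3% without. Nfkbie averaged 8.47 ± 0.318 TPM in Setd1aDel and 15.8 ± 0.507 TPM in wild type, and Zc3h12a 125 ± 2.61 TPM and 85.1 ± 0.235 TPM, and neither pair of groups overlapped. Of all tested genes, 69.6% did not overlap between the genotypes there. The call of Tnfaip3, higher by 0.25 ± 0.093, was lost without the third Setd1aDel library or without the second or the third wild-type library, and that of Nfkb2, -0.16, was lost with scaling, while Nfkb1 turned to 0.13, against -0.03 without scaling. Nfkbie was also the single gene of the 10 whose response to 16 h of Dex was called different, at 0.39 ± 0.12 (adjusted p = 0.041, limma; 10.6% of genes), a call lost without any 1 of the 12 libraries. Tnip1 was called, at 0.17, without the third wild-type library with Dex and LPS. With scaling Tnip1 joined Nfkbie, and the share of positive differences among all called genes moved to 51.8%, against 27.3% without.

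In the 6 h experiment 2 to 4 of the 10 genes were called between the genotypes, depending on the treatment, against 13.6% to 26.2% of all tested genes. With vehicle 2 genes were lower and none higher in Setd1aDel (22.2% of genes called), Tnip1 at -0.21 ± 0.047 and Rel at -0.21 ± 0.073, and the call of Rel was lost without any 1 of the 6 libraries. Scaling left 1 lower gene, Tnip1, and added Zc3h12a as higher, and the share of higher genes among all calls moved to 57.6%, against 29.7% without. Other genes were called without single vehicle libraries: Nfkbie at -0.41 without the third wild-type one, Nfkbia at -0.20 without the second wild-type or the third Setd1aDel one, and Zc3h12a at 0.23 without the first Setd1aDel one. With LPS 3 were higher (21.5%), Nfkb2, Zc3h12a and Nfkbia by 0.31, 0.31 and 0.25, where the share of higher genes among all calls moved to 53.5% with scaling, against 42.7% without. With Dex and LPS 4 were lower (26.2%), Nfkbie, Rel, Nfkbia and Nfkb1 by 0.45, 0.36, 0.35 and 0.14 on the log2 scale. With Dex alone 2 were higher (13.6%), Relb and Tnip1 by 0.30 and 0.20, and the call of Relb was lost without the first or second library of either genotype. Without the third Setd1aDel library with Dex alone 4 genes were called, Nfkbiz (-0.42) and Rel (-0.27) being added as lower, and without the third wild-type one Nfkbiz was added at -0.36. With scaling the share of higher genes among all calls with Dex alone moved to 62.0%, against 45.7% without. Neither of the 2 resting calls with vehicle, nor either call with Dex alone, was made with the compared groups fitted alone. The LPS response was larger in Setd1aDel for Nfkbia (0.40 ± 0.088), Nfkb2 (0.38 ± 0.085) and Tnip1 (0.28 ± 0.067), against 5.60% of genes called, and the call of Tnip1 was lost without the first Setd1aDel or the third wild-type vehicle library (adjusted p = 0.0524 and 0.0503). With scaling the share of positive differences among all called genes moved to 36.8%, against 53.1% without. The effect of the deletion under LPS differed between the 16 h and 6 h experiments for 5 of the 10 genes (41.3% of genes), with Nfkbie at -1.06 ± 0.13 and Nfkbiz at 0.51 ± 0.12. With scaling 6 were called, and the share of positive differences among all called genes moved to 47.1%, against 32.8% without.

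**Figure D4:**
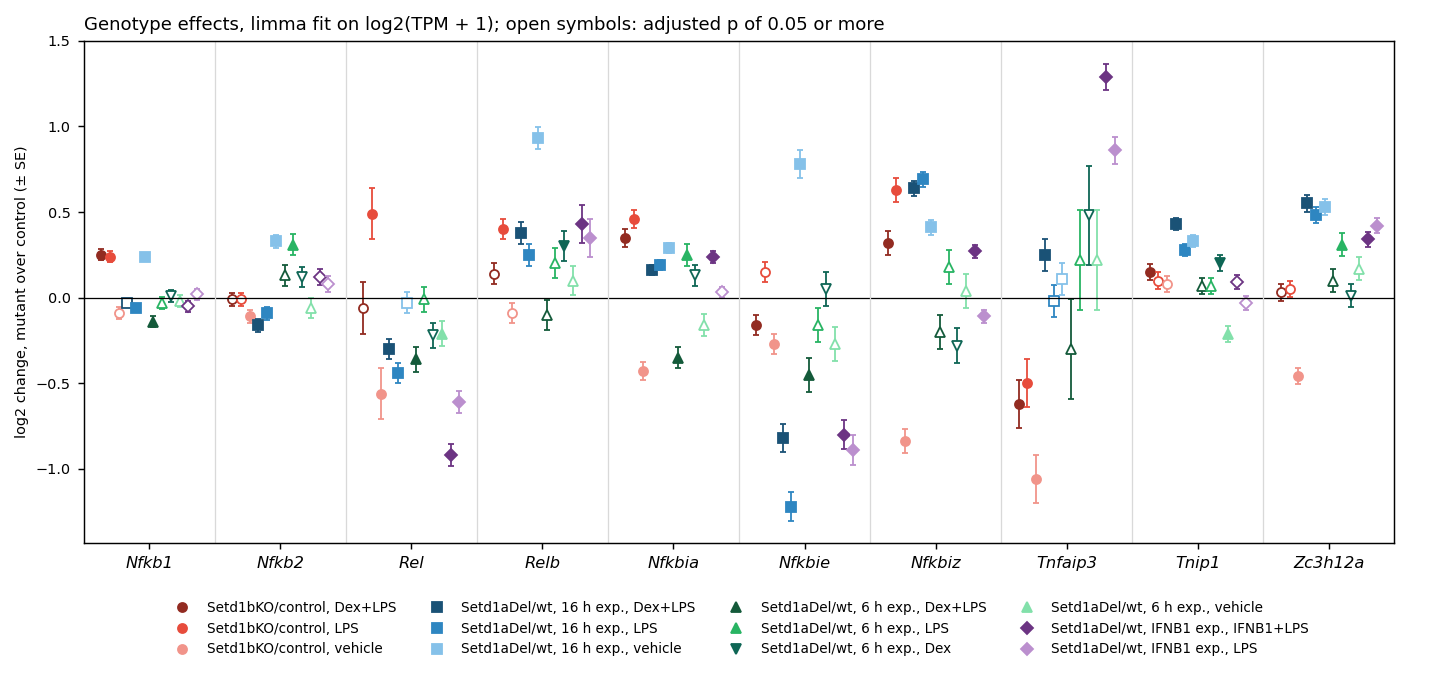
Log2 change (vertical axis, limma on log2(TPM + 1), bars are SE) of the 10 genes in mutant over control cells, in 12 comparisons of 3 against 3 libraries; circles are Setd1bKO over control and the other symbols Setd1aDel over wild type, and open symbols were not called. Nfkbie lies at -1.22 with LPS in the 16 h experiment and at 0.78 with vehicle there, and Tnfaip3 ranges from -1.06 in cells labelled Setd1bKO at rest to 1.29 in the IFNB1 experiment.

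Interferon beta added to LPS raised Nfkbiz in both genotypes of RAW264.7 cells. Nfkbiz had 150, 159 and 156 TPM with IFNB1 and LPS in Setd1aDel against 68.6, 69.4 and 68.7 TPM with LPS, and 128, 131 and 128 TPM with IFNB1 and LPS in wild type against 77.2, 70.4 and 76.4 TPM with LPS. The groups stood far apart, with changes of 1.16 ± 0.037 in Setd1aDel (adjusted p = 8.27e-10, limma) and 0.78 ± 0.037 in wild type (adjusted p = 5.04e-08). Of all tested genes, 58.7% in Setd1aDel and 46.9% in wild type did not overlap between these treatments. The rise of Nfkbiz was larger in Setd1aDel, by 0.38 ± 0.052 (adjusted p = 0.00158). Of the 10 genes 6 rose in Setd1aDel and 4 in wild type and none fell, against 10.5% and 9.50% of 10923 tested genes called higher and 43.6% and 23.5% called lower. The median gene lay 0.18 lower with IFNB1 in Setd1aDel and 0.09 lower in wild type. With scaling 8 genes rose in Setd1aDel and 6 in wild type, and the share of higher genes among all calls moved to 52.4% and 54.2%, against 19.4% and 28.8% without.

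Rel rose with IFNB1 in wild type by 0.46 ± 0.064, with 49.2, 48.1 and 47.1 TPM against 34.2, 33.4 and 36.7 TPM with LPS. In Setd1aDel it had 23.3, 25.1 and 26.8 TPM with IFNB1 and LPS against 21.1, 24.4 and 21.8 TPM with LPS, which overlapped and was not called except with scaling (0.34) or without the first library with IFNB1 and LPS (0.20) or the second with LPS (0.21), and the difference between genotypes was -0.30 ± 0.091 (adjusted p = 0.0539). That difference was called without the third Setd1aDel library with IFNB1 and LPS or the third wild-type library with LPS. Nfkb1 and Zc3h12a rose slightly in wild type, by 0.17 and 0.19. In Setd1aDel Nfkbia, Tnfaip3 and Tnip1 rose by 0.30, 0.27 and 0.18. The smaller rises of Nfkb1 and Zc3h12a in Setd1aDel, 0.10 and 0.11, were not called without the first or the third Setd1aDel library with LPS, and for Zc3h12a also without the second of these or the first or second with IFNB1 and LPS. Nfkbiz, Tnfaip3 and Nfkbia were the 3 genes whose IFNB1 response was called different (11.3% of genes), and with scaling 4 were called, with the share of positive differences among all called genes at 66.1%, against 29.3% without. The difference of Tnfaip3, 0.43 ± 0.11, was lost without the second Setd1aDel library with IFNB1 and LPS, the first or the third with LPS, any wild-type library with IFNB1 and LPS, or the first or second with LPS. That of Nfkbia, 0.21 ± 0.05, was lost without the first or second Setd1aDel library of either treatment, the first wild-type library with IFNB1 and LPS, or the second with LPS.

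Between the genotypes of the IFNB1 experiment, Tnfaip3 was higher and Rel and Nfkbie were lower in Setd1aDel with both treatments. With IFNB1 and LPS, where 5 genes were higher and 2 lower in Setd1aDel (54.2% of genes called; 8 higher and 2 lower with scaling), Tnfaip3 had 13.9, 16.3 and 16.3 TPM in Setd1aDel against 5.60, 5.80 and 5.80 TPM in wild type, a change of 1.29 ± 0.077 (adjusted p = 1.6e-07, limma). With LPS, where 3 were higher and 3 lower (42.6%; 4 higher and 2 lower with scaling), Tnfaip3 had 12.4, 13.6 and 11.9 TPM in Setd1aDel against 6.20, 7.00 and 6.30 TPM in wild type, a change of 0.86 ± 0.077. Rel was lower in Setd1aDel, by 0.92 with IFNB1 and LPS and by 0.61 with LPS, and Nfkbie by 0.80 and 0.89, with 4.60 to 5.00 TPM with LPS in Setd1aDel against 9.60 to 10.2 TPM in wild type. No Rel or Nfkbie library of Setd1aDel reached the wild-type range of its treatment. The genotypes did not overlap for 58.9% of all tested genes with IFNB1 and LPS and 52% with LPS. With scaling the share of higher genes among all calls moved to 52.4% with IFNB1 and LPS, against 29.2% without, while with LPS it moved by less than 10 percentage points. The borderline calls with LPS, Relb at 0.35 and Nfkbiz at -0.11, were lost without single libraries: Relb without the second or the third library of either genotype, and Nfkbiz without any one except the second wild-type library. In the other experiments with LPS, Tnfaip3 was not called between genotypes. It averaged 84.9 TPM in Setd1aDel and 86.3 TPM in wild type at 16 h, and 22.7 and 18.9 TPM at 6 h. Rel and Nfkbie were lower in Setd1aDel with LPS in the 16 h experiment and were not called with LPS in the 6 h experiment. The macrophage markers of the IFNB1 experiment differed between genotypes as well. With LPS their summed level was 10921 to 11121 TPM in Setd1aDel and 6791 to 6893 TPM in wild type, with the means of 5 of the 8 higher in Setd1aDel, Lyz2 among them (7658 and 3638 TPM), and those of 3 lower, Adgre1 among them (18.1 and 90.8 TPM).

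**Figure D5:**
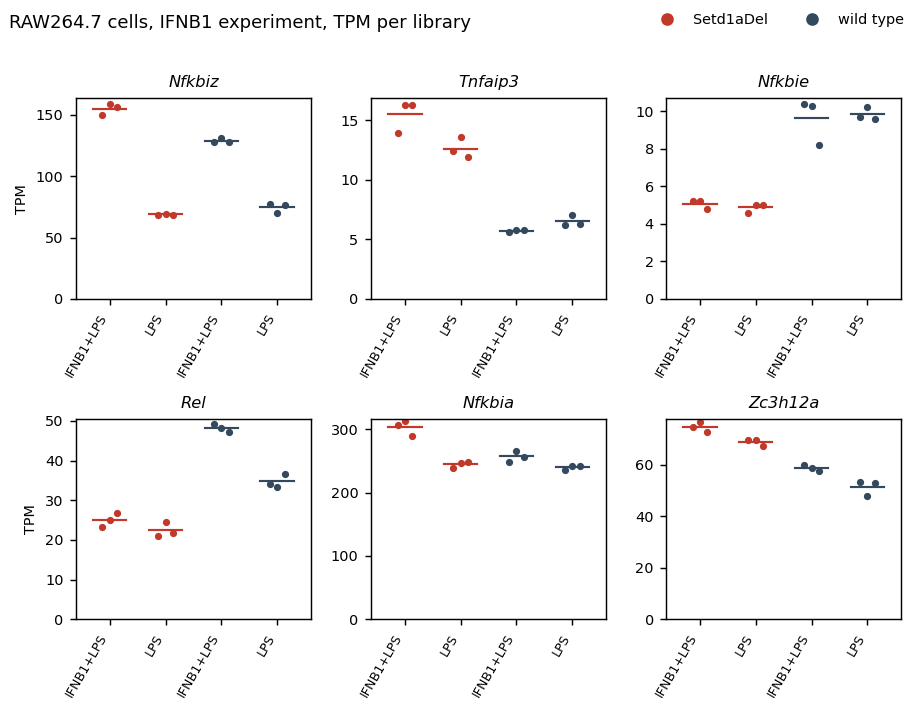
TPM (vertical axes from 0) of 6 of the genes in each library of the IFNB1 experiment (points), with group means as bars, for Setd1aDel (red) and wild-type (dark) RAW264.7 cells with IFNB1 and LPS or with LPS. Nfkbiz stands at 128 to 159 TPM with IFNB1 and at 68.6 to 77.2 TPM without, and Nfkbie and Rel are lower in all Setd1aDel libraries than in wild type.

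The genes whose pattern over all treatments was most like that of each of the 10 were then looked up. For each gene the 3 genes most like it were taken by the lower of 2 Pearson correlations of group means of log2(TPM + 1), over 6 marrow-derived and over 14 RAW264.7 groups, among 8294 genes. These are descriptions, since the groups share treatments and libraries. Nfkb1 was closest to Stk40, Il1b and Il1a, with correlations of at least 0.985, and Nfkb2 to Nfkb1, Il27 and Tnf. Nfkbiz was closest to Ccl3, Pde4b and Socs3, Tnfaip3 to Nlrp3, Cxcl2 and Ccl9, and Nfkbia to Tnfaip3, Plk3 and Cxcl2. Zc3h12a had Socs3, Acod1 and Nfkbiz, Tnip1 had Adora2b, Marcksl1 and Rhbdf2, Rel had Tox4, Rab11fip1 and Cd83, Relb had Icam1, Abcc1 and Ebi3, and Nfkbie had Csrnp1, Rel and Irak2. Nfkbie had the least similar partners, with correlations of 0.938 to 0.952 over the RAW264.7 groups.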

How the data were processed

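Poly(A) RNA libraries (stranded mRNA kit, per the labels' protocols) were measured as TPM, which the authors deposited per library in 3 tables, with the unit of the IFNB1 table not named and inferred from its values. The authors also deposited log2 fold changes, p-values and a mean normalized count signal. The submitters' processing notes name Salmon 0.10.2, DESeq2 and R 3.6.0; roles, annotation release and filters are not given in the sources used here. Read depth is unknown, and the listed TPM values sum to 837032 to 912839 per library, since the tables hold only part of the genes. No pair of libraries was identical.

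Tests used limma 3.58.1 in R 4.3.3 on log2(TPM + 1), with 1 mean per group and a trended prior, in each experiment over all its groups (the 16 h and 6 h experiments also jointly), keeping a gene when 3 or more libraries reached 1 TPM. A fold change on this scale understates changes of low genes. P-values were two-sided and Benjamini-Hochberg adjusted over all tested genes, with a threshold of 0.05. The fit was tested on simulated data. The settings varied were the pseudocount (0.1), the filter (none), scaling by median ratios, a replicate block, the compared groups alone, and leaving out each library. The members, the pathway list and the marker lists were chosen with earlier results of these data known. The text names all 10 genes, up to 4 called and 2 uncalled genes of the pathway list per comparison, and the 3 genes most like each. Gene positions are from GENCODE on GRCm38, and promoter windows from RefSeq on GRCm38.p6.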

Additional observations from a re-analysis of the deposited data

Results flagged for a closer look

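In 54 of the 130 differences tested between responses, over 13 comparisons of differences, the response of 1 of the 10 genes differed between genotypes or experiments by limma (adjusted p under 0.05). Over all tested genes, the share called in these comparisons depended on the comparison. It ran from 0.290% for Dex alone between genotypes to 49.6% for the LPS response of Setd1aDel cells between the 16 h and 6 h experiments. The comparisons share libraries, so the 54 calls are not independent of each other. In those between the 16 h and 6 h experiments, length of Dex or ethanol exposure and experiment cannot be told apart. All values are differences of log2 changes.

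In marrow-derived cells, the response to LPS in cells labelled Setd1bKO minus that in control was 0.33 for Nfkb1, 1.05 for Rel, 0.49 for Relb, 0.89 for Nfkbia, 0.42 for Nfkbie, 1.48 for Nfkbiz and 0.52 for Zc3h12a. For the response to Dex under LPS it was -0.31 for Nfkbie.

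In RAW264.7 cells of the 16 h experiment, the LPS response in Setd1aDel minus that in wild type was -0.30 for Nfkb1, -0.42 for Nfkb2, -0.41 for Rel, -0.67 for Relb, -1.99 for Nfkbie and 0.29 for Nfkbiz. For Dex under LPS it was 0.39 for Nfkbie. In the 6 h experiment the LPS response differed by 0.38 for Nfkb2, 0.40 for Nfkbia and 0.28 for Tnip1, the response to Dex under LPS by -0.60 for Nfkbia, and the response to Dex alone by 0.41 for Tnip1. In the IFNB1 experiment the response to IFNB1 differed by 0.21 for Nfkbia, 0.38 for Nfkbiz and 0.43 for Tnfaip3.

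Between the 16 h and 6 h experiments (16 h minus 6 h), the LPS response of Setd1aDel cells differed by 0.25 for Nfkb1, 0.57 for Nfkb2, 0.55 for Nfkbia, 1.46 for Nfkbiz, 2.25 for Tnfaip3 and 0.41 for Zc3h12a. In wild-type cells it differed by 0.55 for Nfkb1, 1.38 for Nfkb2, 0.74 for Rel, 0.95 for Relb, 1.05 for Nfkbia, 2.08 for Nfkbie, 1.32 for Nfkbiz, 2.39 for Tnfaip3, 0.29 for Tnip1 and 0.60 for Zc3h12a. The response to Dex under LPS differed in Setd1aDel by 0.12 for Nfkb1, 0.47 for Relb, 0.35 for Tnip1 and 0.26 for Zc3h12a. In wild type it differed by -0.30 for Nfkb2, -0.28 for Rel, -0.50 for Nfkbia, -0.43 for Nfkbie, -1.11 for Tnfaip3 and 0.21 for Tnip1. The effect of the Setd1a deletion under LPS differed by -0.41 for Nfkb2, -0.43 for Rel, -1.06 for Nfkbie, 0.51 for Nfkbiz and 0.22 for Tnip1.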

How the results depend on the processing

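Depth is unknown, each group has 3 libraries, and TPM values are relative within a library. Over 510 gene results per setting, direction and call were the same in 472 with median-of-ratios scaling, 487 with the compared groups alone, 499 with a pseudocount of 0.1, 500 with the replicate block and 507 with no filter, and in 3811 of 3960 fits without 1 library. Most same-numbered libraries did not deviate together (median correlations from -0.02 to 0.01 in the 4 experiments, with 4 of 45, 4 of 45, 4 of 84 and 1 of 18 pairs over 0.1). Single pairs ranged most widely in the 16 h experiment, from -0.32 to 0.28. No pairing by number was seen, but these medians cannot exclude a shared culture or animal. The replicate block ended 7 calls and added 3, and it left the number of the 10 genes called within 1.5 times in every comparison. The cause of the changes below was not tested.

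Of the 10 genes, those called for Dex under LPS in control marrow-derived cells were 7 with scaling (4 without). For the genotype difference in that response the count was 0 with scaling and 0 with a pseudocount of 0.1 (1 otherwise; 0 to 3 without 1 library). For the Dex response between the 16 h and 6 h experiments in wild type it was 3 with a pseudocount of 0.1 (6; 3 to 6 without 1 library). For the Dex response between genotypes in the 16 h experiment it was 2 with scaling and 0 with the smaller pseudocount (1; 0 to 1). In the 6 h experiment that count was 2 with scaling and 2 with the compared groups alone (1; 1 to 2). Fitted alone, the counts were 0 for the genotype difference in Dex alone (1), 0 for Setd1aDel against wild type with Dex alone (2; 1 to 4) and 0 with vehicle (2; 1 to 2). For the IFNB1 response between genotypes it was 1 to 4 without 1 library (3).

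With scaling, signs turned for Nfkb1 in Setd1aDel against wild type with Dex and LPS (0.13) and with LPS (0.05) in the 16 h experiment and with IFNB1 and LPS (0.09), and for Nfkb2 with LPS in the 16 h experiment (0.01) and for its IFNB1 response in Setd1aDel (0.15). For Dex under LPS in marrow-derived cells they turned for Nfkb2 in cells labelled Setd1bKO (-0.16) and in control (-0.19), and in control for Nfkbia (-0.17), Tnip1 (-0.03) and Zc3h12a (-0.21). They also turned for Tnip1 in the LPS response of Setd1aDel between the 16 h and 6 h experiments (0.19), for Rela in wild type with Dex and LPS (0.15) and with LPS (0.24) over vehicle at 16 h and with LPS at 6 h (0.03), and for Tnip3 with Dex and LPS over vehicle in Setd1aDel (0.02). With a pseudocount of 0.1 the LPS response difference of Zc3h12d between marrow-derived genotypes turned to -1.02.

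Over all genes, with the compared groups alone the calls in the 6 h experiment were 10 against 26 for the genotype difference in Dex alone, 305 against 475 for that in Dex under LPS, 668 against 1219 for Setd1aDel against wild type with Dex and 1356 against 2350 with Dex and LPS. With no filter, 818 against 1237 genes were called for the IFNB1 response between genotypes.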
